A study of Mus musculus with 23 samples.

Results

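The mitochondrial carriers of the Slc25 family were followed in the CA3 field of the hippocampus of UBB+1 tg and wild-type mice. A probe set, a group of short oligonucleotides that reads 1 stretch of a transcript, was a member if the array annotation named 1 gene only and that gene had a symbol starting with Slc25a or was Ucp2, Mtch1 or Mtch2. This gave 46 genes, of 18192 that the arrays name alone, read by 101 of 45136 probe sets tested. Of these, 72 probe sets of 35 genes were among the 22625 of the MOE430A array, and 29 probe sets of 20 genes among the 22511 of the MOE430B array. No probe set named Ucp2 alone, so no value is given for it. There was no filter on low values, and 16 of the 101 probe sets had a mean under the 25th percentile of their array and are called dim.

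The UBB+1 tg mice came from 1 transgenic line and were heterozygous on a C57BL/6J background. They carried human ubiquitin B with the UBB+1 frameshift, driven by the CaMK2α promoter. The study describes expression in neurons, strongest in the forebrain, and also found the protein in brainstem nuclei. Non-transgenic littermates served as wild-type controls, and all animals were 18 months old. CA3 tissue was cut by laser, and the total RNA was amplified in 2 rounds before hybridisation. MOE430A held 6 UBB+1 tg and 5 wild-type mice, and MOE430B held 6 of each, of which wild-type mouse wt331 was on that array only. The sources do not give the sex of these mice. Values are log2 RMA values, that is, background-corrected and quantile-normalised brightness on 1-colour arrays, and a log2 fold change is UBB+1 tg minus wild type. The array medians were 6.32 to 6.34 on MOE430A and about 5.49 on MOE430B. Brightness also depends on a probe set's sequence and is not read here as the level of one gene against another, and precision is limited by how many arrays there are.

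The 1 probe set that reads a transcribed part of the transgene's promoter lay at 8.45 to 9.34 in UBB+1 tg and at 6.41 to 6.85 in wild-type mice on MOE430A. It was left out of all other counts. Neuronal markers such as Nefl (mean 12.47 in UBB+1 tg and 12.19 in wild-type mice) and CA3 markers such as Bok (10.87 and 10.97) were bright, and so were markers of other cells, such as Mbp of oligodendrocytes (12.31 and 12.09 for its brightest probe set). Of the 10 probe sets for dentate granule cells, those of Prox1 were dim. The brightest, of C1ql2 on MOE430B, had 6.34 and 6.44, at percentile 73.2 of that array. Ttr of the choroid plexus ranged from 4.46 to 11.33 among wild-type and from 4.64 to 10.18 among UBB+1 tg mice in 1454608_x_at. Its 4 probe sets had log2 fold changes of -1.44 to -0.14, with standard errors of 0.28 to 1.33, the other 3 for choroid plexus were above 0, and the part of such tissue in the carrier values was not tested. None of the 69 marker probe sets on MOE430A or the 27 on MOE430B reached an unadjusted p under 0.05 in limma. In such tissue, fewer cells of a type and less RNA per cell cannot be told apart. The arrays fell into 3 array sets by hierarchical clustering of all probe sets, here called low, middle and high by how far the 3' probe sets of the Gapdh and β-actin controls exceed their 5' probe sets. This log2 3'-5' difference is larger where the 5' part of a transcript is less well represented. On MOE430A it was 2.65 to 3.43 in the low set (tg271, wt287 and wt290), 4.44 to 4.62 in the middle set (4 UBB+1 tg and 2 wild-type mice), and 6.05 to 6.10 in the high set (tg270 and wt289). On MOE430B the low and high sets held the same animals, and the middle set held 4 UBB+1 tg and 3 wild-type mice. The genotypes had means of 4.61 ± 0.83 (SD, n = 6) and 4.10 ± 1.45 (SD, n = 5) on MOE430A (exact permutation test over 462 splits, two-sided, p = 0.435).

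The carriers are small proteins of the inner mitochondrial membrane that move 1 kind of solute between matrix and cytosol, often in exchange for another. Through them pass the ADP, ATP and phosphate of ATP synthesis, the aspartate, glutamate and malate that bring reducing equivalents from the cytosol, and the carnitine esters, amino acids, glutathione, nucleotides and cofactors that the matrix uses. Neurons depend on these exchanges because most of their ATP is made in mitochondria. Mtch1, Mtch2 and Slc25a46 have the family's fold but lie in the outer membrane.

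Carrier transcripts in CA3 differed little between the genotypes. Log2 fold changes ran from -0.50 (Mtch1) to 0.39 (Slc25a5) on MOE430A, with a median of 0.01 against 0.00 over all probe sets of the array. On MOE430B they ran from -0.31 (Slc25a39) to 0.45 (Slc25a16), with a median of -0.06 against -0.01. Higher values in UBB+1 tg mice were found for 37 of 72 members (51.4%) on MOE430A, where 51.7% of all probe sets were higher. On MOE430B this held for 8 of 29 members (27.6%), where 47.6% of all probe sets were higher. Several members read the same transcript and so are not independent.

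At a false discovery rate of 10%, limma called none of the members. It called 0% of all probe sets on both arrays, and the adjusted p of the members was 0.984 to 0.998 on MOE430A and 1.00 on MOE430B. At an unadjusted p under 0.05 in limma, the test meant wherever an unadjusted p is given below without another name, 3 of 72 members were higher on MOE430A (4.17%, against 1.91% of all probe sets) and 1 was lower (1.39%, against 1.57%). On MOE430B 0 of 29 members were higher (against 1.52% of all probe sets) and 0 lower (against 1.53%). The genotypes overlapped or shared a value in every member, whereas 0.234% of all probe sets on MOE430A and 0.142% on MOE430B had no overlap. No member differed by more than 1.5-fold, compared with 380 of all probe sets (1.68%) on MOE430A and 126 (0.56%) on MOE430B. The 95% confidence interval excluded a 1.5-fold difference in either direction for 54 of the 72 members on MOE430A (75%, against 73% of all probe sets) and 22 of the 29 on MOE430B (75.9%, against 86.5%). The median standard error of the log2 fold change was 0.15 for the members on MOE430A (0.13 over all probe sets) and 0.13 on MOE430B (0.10 over all probe sets).

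**Figure D1:**
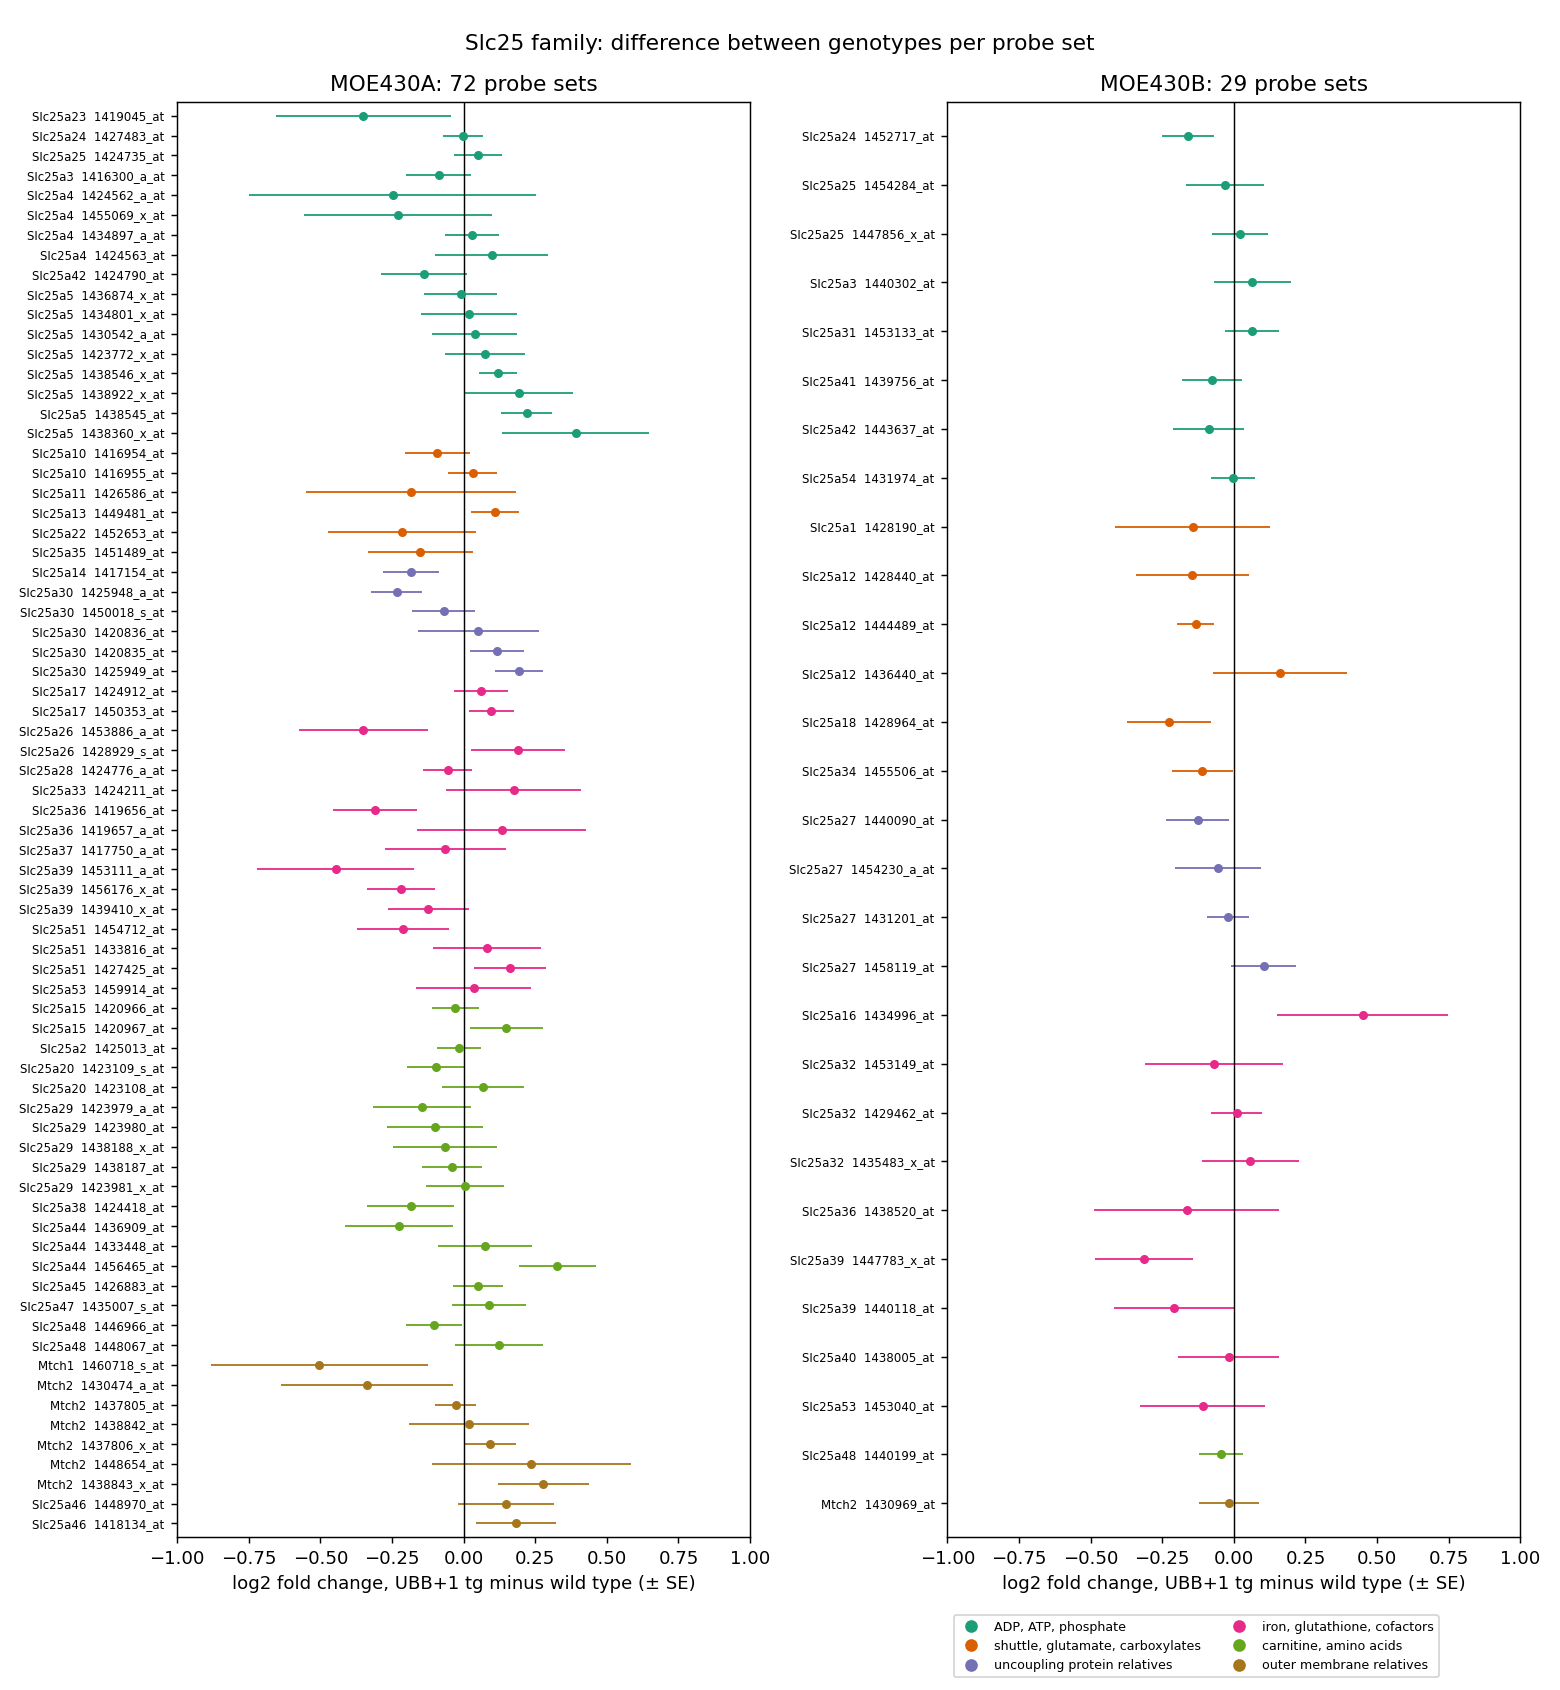
Log2 fold change of UBB+1 tg against wild-type mice (horizontal axis, points with standard error from limma) for each member probe set (vertical axis), on MOE430A at left and MOE430B at right, coloured by role. The values lie on both sides of 0 in most role groups and run from -0.50 to 0.45.

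Of the 24 genes with several probe sets, 19 had probe sets on both sides of 0. Every probe set was higher for 2 of them (Slc25a17 and Slc25a46) and lower for 3 (Slc25a24, Slc25a39 and Slc25a42).

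The ADP/ATP carriers Slc25a4 and Slc25a5 exchange ADP from the cytosol for ATP made in the matrix, and Slc25a3 brings in the phosphate. Slc25a5 had 8 probe sets on MOE430A, 7 of them higher in UBB+1 tg mice, with log2 fold changes of -0.01 to 0.39. With the array set as a block, 4 were higher and 4 lower, at -0.10 to 0.30. Probe set 1438545_at of Slc25a5 was at 7.89, 7.85, 7.93, 7.72 and 7.93 in the wild-type mice wt287, wt289, wt290, wt291 and wt321. In UBB+1 tg mice its lowest, median and highest values were 7.81, 8.09 and 8.33. Thus 5 of 6 UBB+1 tg mice lay above every wild-type mouse, and tg276 lay among them. The log2 fold change was 0.22 (standard error 0.09, exact permutation test, two-sided, p = 0.0303, adjusted p = 0.984 from limma). Probe set 1438546_x_at of the same gene had 9.17, 9.04, 9.11, 9.17 and 9.05 in wild-type mice and 9.14, 9.21 and 9.37 as the lowest, median and highest of the UBB+1 tg mice. All 6 UBB+1 tg mice lay above the wild-type mean, and the log2 fold change was 0.12 (standard error 0.07). The 4 brightest Slc25a5 probe sets differed less, with log2 fold changes of 0.08 (1423772_x_at), 0.04 (1430542_a_at), 0.02 (1434801_x_at) and -0.01 (1436874_x_at). The highest value among the 8, 0.39 for 1438360_x_at, had a standard error of 0.26.

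In 2 of the 4 probe sets of Slc25a4, the 2 animals of the high array set stood below all others. This gene was singled out after its values were seen. Probe set 1424562_a_at was at 9.35 in tg270 and 10.33 in wt289, and at 11.55 to 12.07 in the other UBB+1 tg mice and 11.96 to 12.09 in the other wild-type mice. Probe set 1455069_x_at showed the same animals low, with 10.31 in tg270 and 10.74 in wt289 against 11.53 to 12.21 in the others. Probe set 1434897_a_at did not set these animals apart, with 11.96 in tg270 and 11.99 in wt289 in a range of 11.61 to 12.08 over all animals. The log2 fold changes were -0.25 (standard error 0.50), -0.23 (0.33) and 0.03 (0.09, 95% confidence interval -0.18 to 0.24), and the dimmer 1424563_at had 0.10 (0.20). Without tg270 the first was 0.17 and the second 0.01. When the fit held the array set as a block, they were -0.35 (standard error 0.14) and -0.32 (0.09), at adjusted p of 0.687 and 0.658 from limma. In that fit 1434897_a_at was at 0.007 (standard error 0.09) and 1424563_at at -0.05 (0.14).

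**Figure D2:**
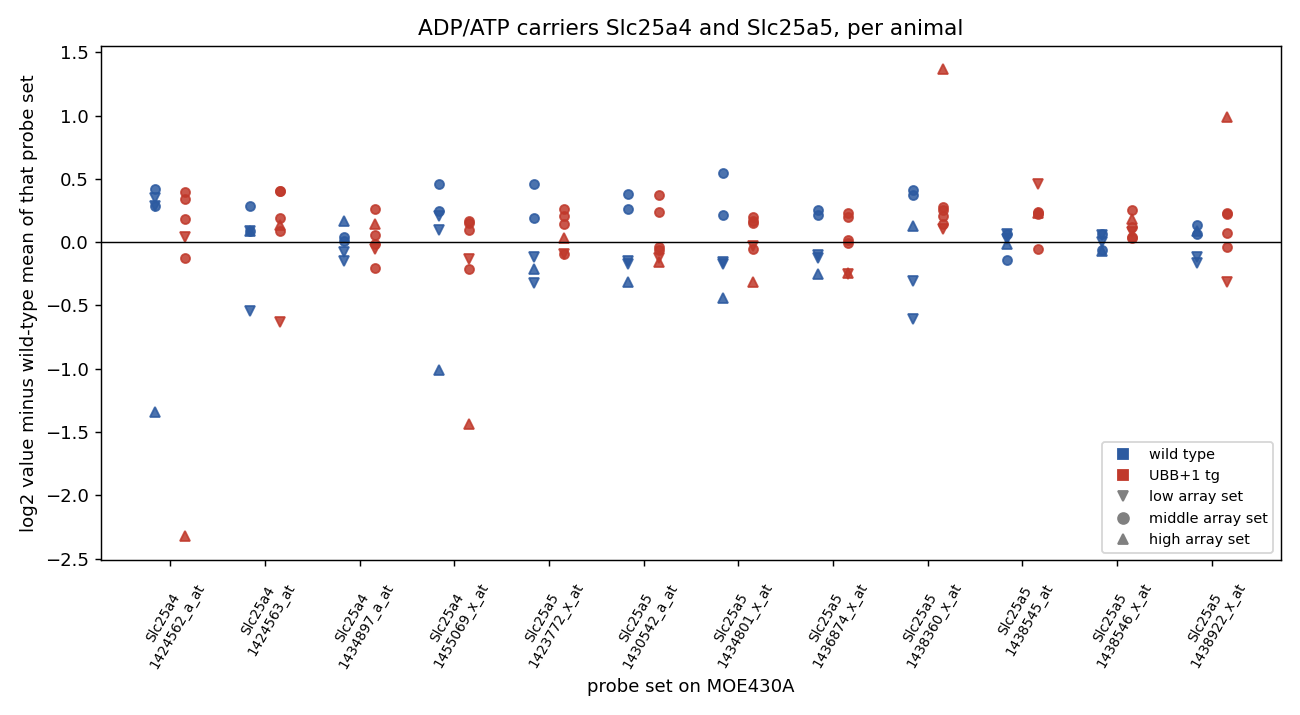
Log2 value of each animal minus the wild-type mean of the same probe set (vertical axis) for the 4 Slc25a4 and 8 Slc25a5 probe sets on MOE430A (horizontal axis), with genotype by colour and array set by marker. Mice tg270 and wt289 of the high array set lie lowest in Slc25a4 1424562_a_at and 1455069_x_at but not in 1434897_a_at.

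Slc25a3, the phosphate carrier, had the brightest probe set of the family, 1416300_a_at. It lay at 12.91, 12.86, 12.93, 13.16 and 13.34 in wild-type mice, and its lowest, median and highest values in UBB+1 tg mice were 12.76, 12.95 and 13.16. The log2 fold change was -0.09, with a 95% confidence interval of -0.33 to 0.16. The calcium-regulated ATP-Mg/phosphate carriers gave -0.35 for Slc25a23 (standard error 0.31), -0.002 and -0.16 for Slc25a24, and -0.03 to 0.05 for the 3 probe sets of Slc25a25. Slc25a23 was also singled out after its values were seen. It was at -0.09 with the array set as a block and at -0.07 in the middle array set alone. With 1 mouse left out it was at -0.51 to -0.22, and the other alternative settings listed below went as low as -0.66. The Slc25a24 probe set on MOE430B, 1452717_at, was dim, with a lowest, median and highest value of 4.13, 4.31 and 4.59 in UBB+1 tg and 4.21, 4.53 and 4.67 in wild-type mice. Slc25a42, a carrier of coenzyme A, had -0.14 and -0.09. Slc25a31, an ADP/ATP carrier of the testis, was dim (means 3.56 and 3.50), and Slc25a41 and Slc25a54, both on MOE430B, had -0.08 (standard error 0.10) and -0.003 (0.08).

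Carriers of the malate-aspartate shuttle and of glutamate had 6 probe sets on each array. On MOE430A 4 of 6 were lower in UBB+1 tg mice, with a median of -0.12, and on MOE430B 5 of 6, with a median of -0.14. None of the 12 had an unadjusted p under 0.05 in limma, where the lowest was 0.0568, of Slc25a12 1444489_at. Slc25a12, the aspartate/glutamate carrier of neurons, had 3 probe sets on MOE430B. Probe set 1444489_at of Slc25a12 was at 5.25, 5.53 and 5.55 in UBB+1 tg mice and at 5.53, 5.60 and 5.68 in wild-type mice (lowest, median and highest, n = 6 each). All 6 UBB+1 tg mice lay below the wild-type mean, and the groups overlapped at their edges, where tg270, tg273 and tg277 lay above the lowest wild-type mouse, wt291. The log2 fold change was -0.13 (standard error 0.06, exact permutation test over 924 splits, two-sided, p = 0.00866, adjusted p = 1.00 from limma). The 2 brighter Slc25a12 probe sets had log2 fold changes of -0.15 (1428440_at, standard error 0.20) and 0.16 (1436440_at, 0.23). Slc25a13, its counterpart known from liver, had 0.11 (standard error 0.08).

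Slc25a22, a glutamate carrier of neurons, was at 10.03, 10.30, 10.30, 9.25 and 9.25 in the wild-type mice wt287, wt289, wt290, wt291 and wt321. The lowest, median and highest UBB+1 tg values were 9.22, 9.49 and 10.32. High values were those of the low and high array sets in both genotypes. The log2 fold change of -0.22 (standard error 0.26) became 0.01 with the array set as a block. It ran from -0.43 to 0.14 under the alternative settings listed below other than leaving out a mouse. Slc25a18, the glutamate carrier of astrocytes, was at 7.08, 7.52 and 7.75 in UBB+1 tg and 7.14, 7.80 and 7.98 in wild-type mice (lowest, median and highest), a log2 fold change of -0.23 (standard error 0.15). The oxoglutarate/malate carrier Slc25a11 had -0.18 (standard error 0.37), the citrate carrier Slc25a1 -0.14 (0.27) and the dicarboxylate carrier Slc25a10 -0.09 and 0.03. Slc25a34 had -0.11 (standard error 0.10) and Slc25a35 -0.15 (0.18).

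Uncoupling proteins let protons back across the inner membrane, and Slc25a14, Slc25a27 and Slc25a30 are their relatives found in brain and kidney. The single probe set of Slc25a14, 1417154_at, was at 10.64, 10.75, 10.44, 10.87 and 10.43 in wild-type mice, with 10.27, 10.47 and 10.60 as the lowest, median and highest of the UBB+1 tg mice. All 6 UBB+1 tg mice lay below the wild-type mean, but 2 wild-type mice were below the UBB+1 tg median, and the log2 fold change was -0.18 (standard error 0.10, exact permutation test, two-sided, p = 0.0887). The 4 Slc25a27 probe sets on MOE430B had log2 fold changes of -0.13 to 0.10.

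Slc25a30 had 5 probe sets on MOE430A, of which 2 had opposite signs and an unadjusted p under 0.05 in limma, 0.0238 for 1425948_a_at and 0.0435 for 1425949_at. Probe set 1425948_a_at of Slc25a30 was at 5.86, 5.52, 5.55, 5.61 and 5.52 in wild-type mice and at 5.21, 5.39 and 5.52 in UBB+1 tg mice (lowest, median and highest). The highest UBB+1 tg mice and the lowest wild-type mice held the same deposited value of 46 on the linear scale. The log2 fold change was -0.23 (standard error 0.09, exact permutation test, two-sided, p = 0.0238, adjusted p = 0.984 from limma). The dim 1425949_at of Slc25a30 was at 3.81, 3.81, 3.91, 3.91 and 4.09 in wild-type mice and at 3.91, 4.09 and 4.25 in UBB+1 tg mice. It differed by 0.19 on the log2 scale (standard error 0.09, exact permutation test, two-sided, p = 0.0563). In whole numbers, as deposited, this is 14 to 17 against 15 to 19, and 1 unit at 14 is a step of 0.10 on the log2 scale. The other 3 probe sets had 0.12, 0.05 and -0.07, and the 5 averaged had 0.01 (standard error 0.08).

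**Figure D3:**
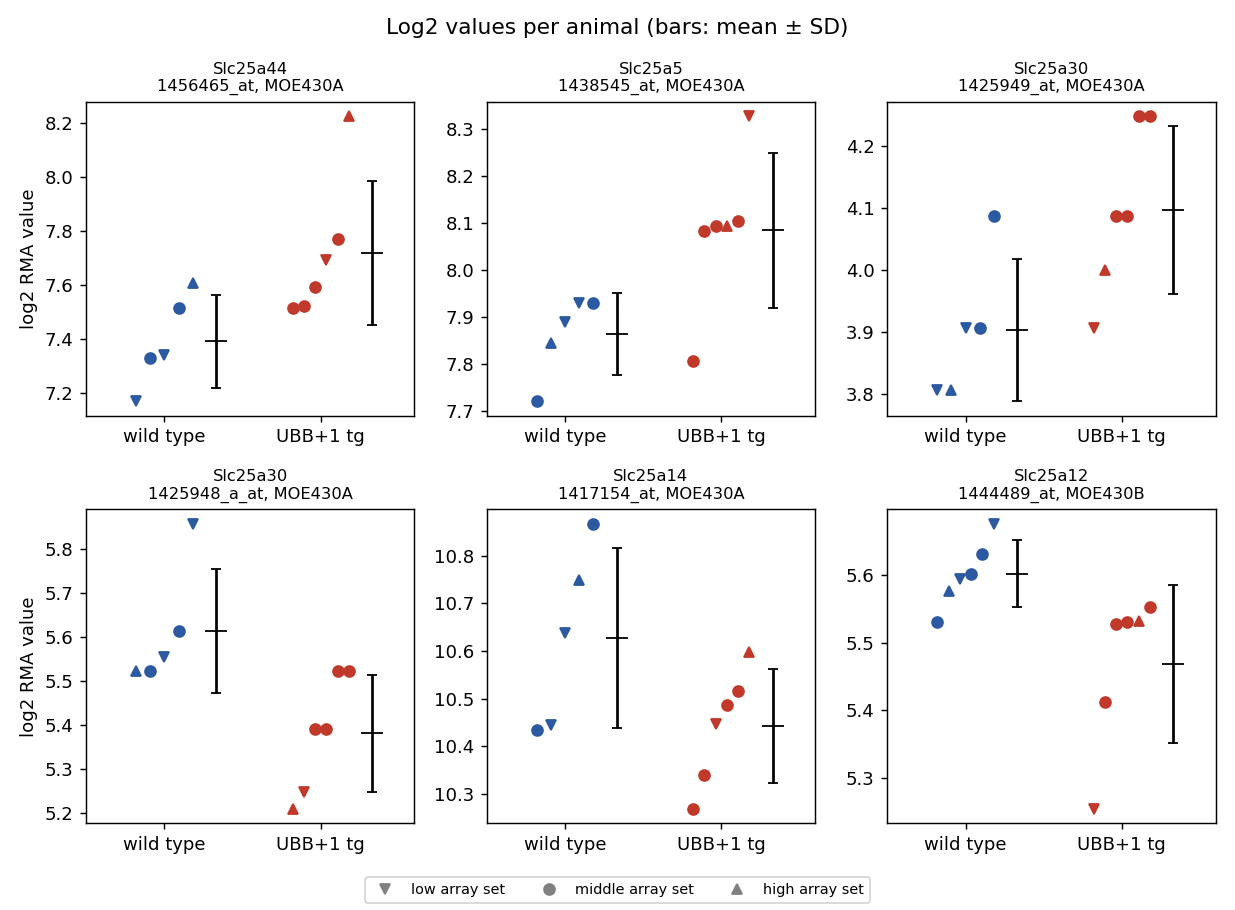
Log2 value of each animal (vertical axis) by genotype (horizontal axis) for the 4 members with an unadjusted p under 0.05 and for Slc25a14 and Slc25a12 1444489_at, with array set by marker and mean ± SD as black bars. The genotypes overlap or touch in each panel.

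Carriers of iron, glutathione, nucleotides and cofactors had 16 probe sets on MOE430A (8 higher, 8 lower) and 9 on MOE430B (3 higher, 6 lower). Slc25a39 takes glutathione into the matrix, and all 5 of its probe sets were lower in UBB+1 tg mice. On MOE430A its brightest probe set, 1439410_x_at, was at 11.55, 11.35, 11.40, 11.22 and 11.11 in wild-type mice and at 10.89, 11.12 and 11.57 in UBB+1 tg mice (lowest, median and highest). For 1456176_x_at the wild-type values of Slc25a39 were 10.68, 10.54, 10.56, 10.71 and 10.53, and the UBB+1 tg values 9.997, 10.47 and 10.62. Only 1 UBB+1 tg mouse lay above the wild-type mean in the latter, but 3 lay within the wild-type range. Probe set 1453111_a_at had 7.68, 6.69, 7.36, 6.49 and 6.34 in wild-type mice and 6.07, 6.34 and 7.26 in UBB+1 tg mice. In it the 3 mice of the low array set had the 3 highest values, whatever their genotype.

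The log2 fold changes of Slc25a39 were -0.12 (standard error 0.14), -0.22 (0.12) and -0.45 (0.27) on MOE430A in that order. On MOE430B, from the same mice and wt331, they were -0.21 (0.21) for 1440118_at and -0.31 (0.17) for 1447783_x_at. The lowest, median and highest values of 1447783_x_at were 7.67, 8.05 and 8.47 in UBB+1 tg mice and 7.98, 8.35 and 8.92 in wild-type mice. Averaged per gene, Slc25a39 had -0.26 on both arrays (standard error 0.13 on MOE430A and 0.18 on MOE430B), with adjusted p of 0.972 and 1.00 from limma over all genes. With the array set as a block this was -0.19 and -0.18. Probe set 1453111_a_at alone ran from -0.64 to -0.09 under the alternative settings other than leaving out a mouse. Slc25a40, the other glutathione carrier, had -0.02 (standard error 0.18).

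**Figure D4:**
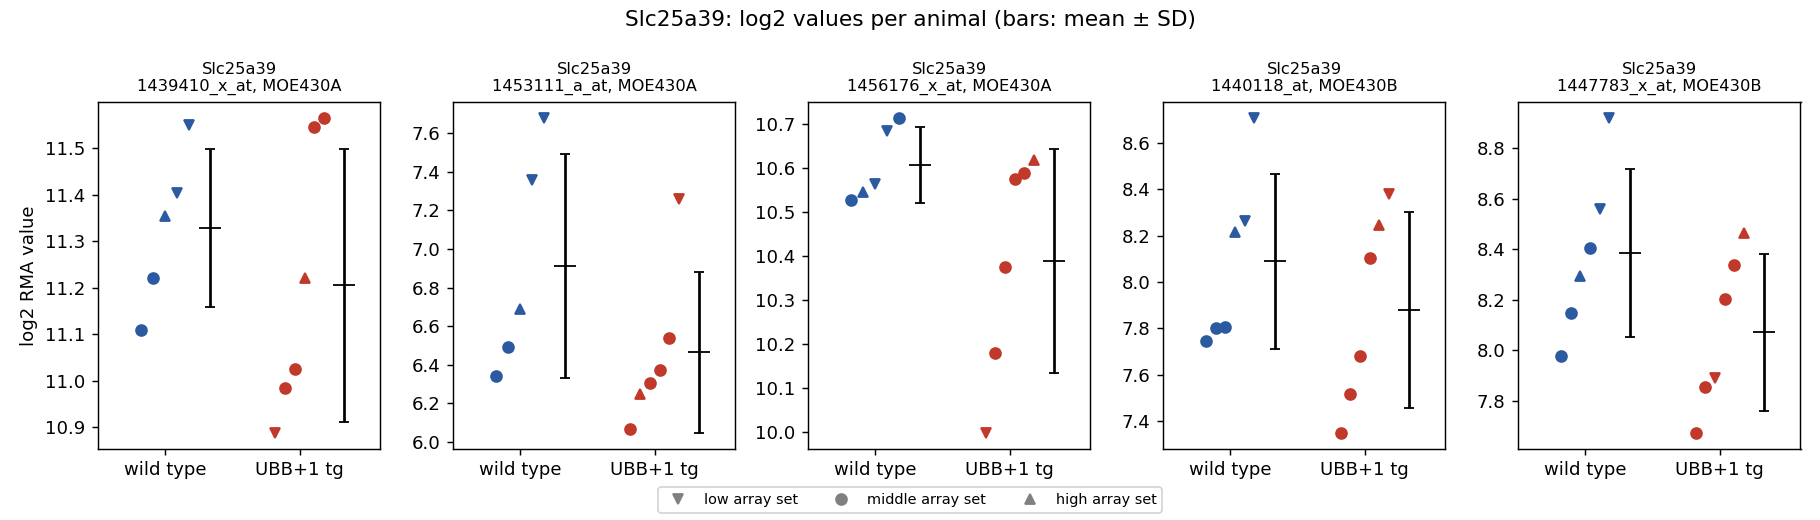
Log2 value of each animal (vertical axis) by genotype (horizontal axis) for the 5 probe sets of Slc25a39, with array set by marker and mean ± SD as black bars. The UBB+1 tg mean is the lower one in each panel, and the genotypes overlap in each.

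Slc25a16, linked to coenzyme A uptake, had the highest log2 fold change of the 29 members on MOE430B, 0.45 (standard error 0.30). Its lowest, median and highest values were 6.39, 7.02 and 8.03 in UBB+1 tg mice and 6.07, 6.77 and 7.27 in wild-type mice, and the ranges overlapped between 6.39 and 7.27. The pyrimidine nucleotide carriers had 0.18 for Slc25a33 (standard error 0.24) and -0.31, 0.13 and -0.16 for Slc25a36. Probe set 1419656_at of Slc25a36, the lowest of these, was dim, at 5.17, 4.86, 4.91, 4.91 and 5.25 in wild-type mice and 4.39, 4.67 and 5.21 in UBB+1 tg mice. The iron carriers Slc25a28 and Slc25a37 had -0.06 (standard error 0.09) and -0.06 (0.21). Slc25a26, which brings in S-adenosylmethionine, had 0.19 (standard error 0.16) and -0.35 (0.23). The NAD carrier Slc25a51 had -0.21 to 0.16 over 3 probe sets, the folate carrier Slc25a32 had -0.07 to 0.06 over 3, and Slc25a17 of peroxisomes 0.06 and 0.10.

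Carriers of carnitine, basic and other amino acids had 18 probe sets on MOE430A, with 8 above and 10 below 0 and a median of -0.02, and 1 on MOE430B. Slc25a44, a carrier of branched-chain amino acids, had 1 probe set with an unadjusted p under 0.05. Probe set 1456465_at of Slc25a44 was at 7.17, 7.61, 7.34, 7.52 and 7.33 in wild-type mice and at 7.52, 7.64 and 8.22 in UBB+1 tg mice (lowest, median and highest). All 6 UBB+1 tg mice lay above the wild-type mean, and the highest value was that of tg270. The log2 fold change was 0.33 (standard error 0.13, exact permutation test, two-sided, p = 0.0325, adjusted p = 0.984 from limma). The other Slc25a44 probe sets had 0.08 (standard error 0.16) and -0.23 (0.19), and the 3 averaged had 0.06 (0.10).

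The brightest probe set of this group, 1438187_at of Slc25a29, a carrier of basic amino acids, was at 9.45, 9.55, 9.53, 9.97 and 9.39 in wild-type mice and at 9.42, 9.52 and 9.73 in UBB+1 tg mice. Its log2 fold change was -0.04 (standard error 0.11), and 0.06 without wt291. The other 4 Slc25a29 probe sets had -0.15 to 0.00. Slc25a20, which takes acylcarnitines to fatty acid oxidation, had 0.07 and -0.10, the ornithine carrier Slc25a15 -0.03 and 0.15, and Slc25a38, which brings in glycine for haem synthesis, -0.18 (standard error 0.15). Slc25a48, a choline carrier, had 0.12, -0.10 and -0.05. The remaining members were Slc25a2 (-0.02), Slc25a45 (0.05) and Slc25a47 (0.09), and, among the cofactor carriers, Slc25a53 (0.04 and -0.11).

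Among the relatives in the outer membrane, Mtch1 had the most negative log2 fold change of the family, -0.50 (standard error 0.38). Its probe set 1460718_s_at was at 11.93, 10.46, 11.85, 10.92 and 10.86 in wild-type mice. The UBB+1 tg values were 9.23 in tg270 and 10.83 to 11.14 in the other 5. All 6 UBB+1 tg mice lay below the wild-type mean. The highest wild-type values were those of wt287 and wt290 of the low array set, and within the middle array set alone the difference was 0.10. Without tg270 it was -0.21. Blocked on array set it was -0.43 (standard error 0.19). Mtch2, which inserts proteins into the outer membrane, had 7 probe sets with log2 fold changes of -0.34 to 0.28, 3 lower and 4 higher. Slc25a46, which takes part in mitochondrial fission and fusion, had 0.18 and 0.15 (standard error 0.14 and 0.17).

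Differences between array sets within 1 genotype are given as a description, since the array sets were found in these values. Among wild-type mice, 2 of the middle were set against 2 of the low set on MOE430A and 3 against 2 on MOE430B, fewer animals than in the genotype comparison, with which they are shared. The median size of the middle-minus-low difference was 0.19 on MOE430A (0.18 over all probe sets) and 0.26 on MOE430B (0.15). Beyond 1.5-fold lay 10 members on MOE430A (13.89%, against 16.6% of all probe sets), 4 higher and 6 lower in the middle set, and 4 on MOE430B (13.8%, against 7.69%). The most negative were Slc25a39 1453111_a_at (-1.10), Mtch1, Slc25a23 and Slc25a22 (-0.92) in this order, and the highest Mtch2 1448654_at (1.05), Slc25a12 1436440_at (0.93) and Slc25a5 1438360_x_at (0.85). The genotype log2 fold changes of the same probe sets were -0.45, -0.50, -0.35, -0.22, 0.24, 0.16 and 0.39.

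**Figure D5:**
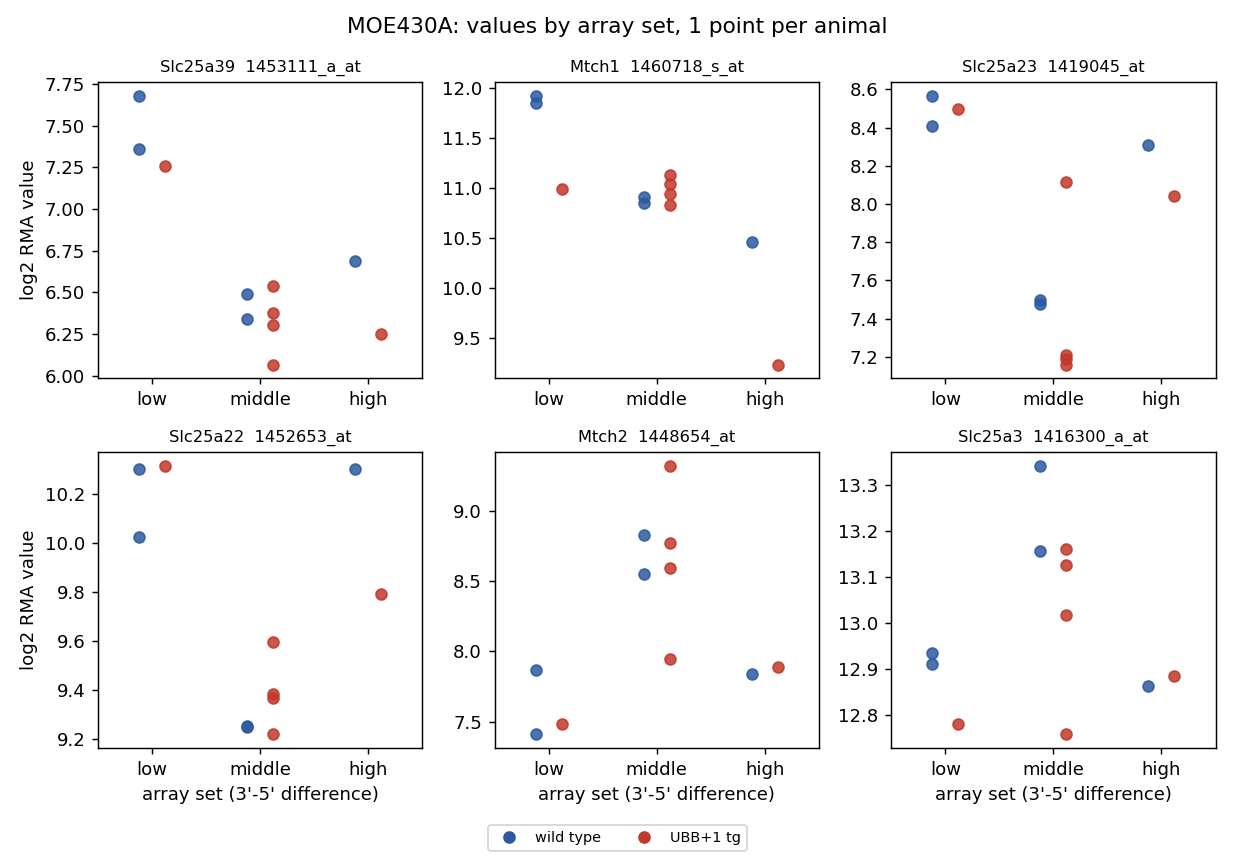
Log2 value of each animal (vertical axis) by array set on MOE430A (horizontal axis, ordered by the 3'-5' difference of the control probe sets) for 6 members, with genotype by colour. In Slc25a39 1453111_a_at and Slc25a23 the low set lies highest in both genotypes, in Slc25a22 the middle set lies lowest, and in Mtch2 1448654_at the highest value of each genotype is in the middle set.

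With the array set as a block, no member passed the false discovery rate, and 0% of all probe sets did on either array. An unadjusted p under 0.05 was then found for 6 of 72 members on MOE430A (8.33%, against 7.19% of all probe sets) and 0 of 29 on MOE430B (against 5.06%). The 6 were Slc25a5 1438545_at (0.26), Slc25a44 1456465_at (0.33), Slc25a48 1448067_at (0.21), Slc25a30 1425948_a_at (-0.24) and Slc25a4 1424562_a_at and 1455069_x_at. Of these, 3 were among the 4 without the block. Averaged per gene on MOE430A, with the block, Slc25a5 had 0.07, Slc25a44 0.08, Slc25a48 0.04, Slc25a30 -0.03 and Slc25a4 -0.18. In the block fit of all probe sets, 7 of 69 marker probe sets on MOE430A had an unadjusted p under 0.05. Among them were 2 of 2 for CA2 pyramidal cells, with log2 fold changes of 0.52 (Rgs14) and 0.82 (Pcp4), whereas the CA2 marker Amigo2 had 0.11 and -0.11 on MOE430B. Also among them were 3 of 8 for microglia, with -0.37 (C1qa), -0.33 (Csf1r 1419873_s_at) and -0.17 (P2ry12). The other microglia probe sets had -0.01 (1419872_at) and -0.05 (1423593_a_at) for Csf1r, -0.06 and 0.06 for Cx3cr1 and -0.11 for Aif1. The rest of the 7 were Snap25 1416828_at of neurons (0.41) and Gad1 1416561_at of interneurons (0.26). Snap25 1447763_at on MOE430B had -0.22 and Gad1 1416562_at had -0.06. On MOE430B 2 of 27 marker probe sets were under 0.05, Syt1 1433884_at (0.20) and the CA3 marker Cpne4 1429443_at (0.42). Other probe sets of these genes on that array had -0.23 (Syt1 1438282_at) and -0.12 (Cpne4 1453888_at). The marker probe sets under 0.05 had an adjusted p of 0.406 to 0.690 on MOE430A and 0.900 on MOE430B from limma. Their part in the carrier values was not tested.

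Other genes of mitochondrial exchange were read from a list of import factors, shuttle enzymes, further channels and regulators. Carrier proteins are made in the cytosol and handed through the outer membrane by Tomm70a and Tomm20, across the intermembrane space by the small Timm chaperones, and into the inner membrane by Timm22. There were 33 such probe sets on MOE430A, 14 above and 19 below 0, with a median of -0.03. The dim probe set 1428010_at of Timm9, with a mean of 3.69 in UBB+1 tg and 3.95 in wild-type mice, was the only one with an unadjusted p under 0.05. It differed by -0.26 on the log2 scale (standard error 0.11, adjusted p = 0.984 from limma). The brightest of the group, Tomm20 1423079_a_at, had 0.19 (standard error 0.17). Tomm70a, which is on the study's list of genes regulated in these samples and so not independent of them, had 0.43, 0.26, 0.23 and 0.15 on MOE430A, with standard errors of 0.10 to 0.37, and -0.07 on MOE430B.

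Enzymes of the malate-aspartate and glycerol phosphate shuttles had 14 probe sets on MOE430A, 10 higher and 4 lower, with a median of 0.06 and none at an unadjusted p under 0.05. The brightest, Mdh1 1448172_at, a cytosolic malate dehydrogenase, had 0.09 (standard error 0.22). Porins, the pyruvate carrier, creatine kinases and other exchange proteins had 18 probe sets, 7 higher and 11 lower, with a median of -0.08 and none at an unadjusted p under 0.05. The brightest was Vdac1 1436992_x_at, a porin of the outer membrane, with 0.10 (standard error 0.16). Of all probe sets on MOE430A, 51.7% were higher. Regulators of mitochondrial genes had 13 probe sets, 11 higher and 2 lower, with a median of 0.17 and none at an unadjusted p under 0.05. They included 5 of Ppargc1a, a coactivator of mitochondrial biogenesis that is likewise on the study's list for these samples, with log2 fold changes of 0.16 to 0.80 and standard errors of 0.15 to 0.77. On MOE430B none of the 12 probe sets on these lists had an unadjusted p under 0.05. With the array set as a block, 4 of 78 were under 0.05 on MOE430A and 1 of 12 on MOE430B, against 7.19% and 5.06% of all probe sets. They were Ppargc1a 1434099_at (0.39), Tomm20 1423081_a_at (0.27), Mdh1 1434319_at (0.29), Timm9 1428010_at (-0.24) and, on MOE430B, Agk 1430496_at (-0.26). Their adjusted p was 0.658 to 0.687 on MOE430A and 0.900 on MOE430B from limma.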

How the data were processed

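RNA from CA3 cut by laser was measured on Affymetrix MOE430A and MOE430B arrays. The deposited values are the authors' RMA values, made separately for each kind of array with a software version not given in the sources used here: linear intensities on MOE430A, all of them whole numbers, and log2 values on MOE430B. MOE430A intensities were log2-transformed here. Of 22690 and 22575 probe sets, 64 controls on each array were left out, as was, following the study's methods, the 1 probe set of MOE430A for the transgene's promoter. By the annotation, 20379 probe sets of MOE430A and 14661 of MOE430B name 1 gene. Groups and animals came from the sample labels. The labels name animals but no litters. Each mouse had at most 1 array of each kind. The p-values thus set the genotype difference against a spread in which mouse and technical differences cannot be told apart.

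All probe sets of an array were fitted with limma 3.58.1 (lmFit and eBayes, R 4.3.3), without covariates, two-sided, with the Benjamini-Hochberg adjustment within the array and a false discovery rate of 10%. The fit was tested on simulated data. The study's own main analysis, on single probes with ChipInspector, cannot be run on summarised values. Its methods add a check of the results with RMA and a limma t-test at a false discovery rate of 10%. At that rate the limma fit used here called 0 of 22625 probe sets on MOE430A and 0 of 22511 on MOE430B. The reason for this difference from the study was not tested. Exact permutation tests over animals, with a smallest possible p of 0.00216 on either array, were computed for all 101 members and are not adjusted. Arrays were clustered by Pearson r with complete linkage, and the tree was divided into 3 array sets. The members, lists, array sets and tests were chosen with earlier results of these data known. Named were members with an unadjusted p under 0.05, the 8 with the smallest p per array, the brightest of each role, the other probe sets of these genes, and listed genes with an unadjusted p under 0.05 or the brightest of their list. Slc25a4, Slc25a23, Slc25a48, Mtch2, Tomm70a, Ppargc1a and the members given in short values were named after their values were seen. Alternatives were a stricter false discovery rate, filters on dim and cross-hybridising probe sets, a floor, a second quantile normalisation, median centring, a variance trend, array weights, the 3'-5' difference as covariate, the array set as block or the middle set alone, probe sets averaged per gene, and leaving out each mouse.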

Additional observations from a re-analysis of the deposited data

Results flagged for a closer look

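In 56 groups of 5 or 6 mice, 8 extreme values stood apart from the rest of their group by Dixon's criterion. Chance alone meets it in about 1 of 20 groups that were not chosen by their values. That rate does not apply here, since the groups are of named probe sets, some named after their values were seen. On MOE430A, 4 of them came from tg270: Slc25a4 1424562_a_at at 9.35 (others 11.55 to 12.07), Slc25a4 1455069_x_at at 10.31 (11.53 to 11.91), Mtch1 1460718_s_at at 9.23 (10.83 to 11.14) and Slc25a44 1456465_at at 8.22 (7.52 to 7.77). The other mouse of the high array set, wt289, stood apart in the same Slc25a4 probe sets, at 10.33 in 1424562_a_at (others 11.96 to 12.09) and 10.74 in 1455069_x_at (11.84 to 12.21). Slc25a29 1438187_at was at 9.97 in wt291, against 9.39 to 9.55 in the other wild-type mice. Slc25a30 1425948_a_at was at 5.86 in wt287, against 5.52 to 5.61. The 3'-5' difference of tg270 and wt289 on MOE430A was 6.05 and 6.10, and its part in these values was not tested.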

How the results depend on the processing

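No member passed the false discovery rate under any alternative run on either array, and the lowest adjusted p of a named probe set was 0.473. Of 614 values of 28 named probe sets under other settings, 597 kept their sign, 17 reversed, and 18 probe sets had no reversal. The members' median on MOE430A was -0.029 with the array set as a block. With 1 mouse left out at a time it ran from -0.027 to 0.029 on MOE430A, and from -0.092 to -0.035 on MOE430B. The count of MOE430A members higher at an unadjusted p under 0.05, 3 as reported, was 1 without tg273, tg277, wt287, wt289, wt290 or wt291 and 0 with probe sets averaged per gene. The count lower, 1 as reported, was 0 without wt287, 3 without wt289 and 2 without tg271, wt290 or wt321.

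Signs reversed in these cases, and the cause was not tested. With the array set as a block, Slc25a22 was at 0.013 and Mtch2 1448654_at at -0.047. In the middle array set alone, Slc25a39 1439410_x_at was at 0.12, Slc25a22 at 0.14, Mtch1 at 0.10, Mtch2 1448654_at at -0.030, Slc25a4 1434897_a_at at -0.0031 and Slc25a27 1440090_at at 0.044. When the fit held the 3'-5' difference, Slc25a4 1424562_a_at was at 0.035 and 1434897_a_at at -0.0084. Averaged per gene, Slc25a30 was at 0.011 and Slc25a4 at -0.087. Leaving out single mice gave -0.58 to 0.17 for Slc25a4 1424562_a_at and -0.48 to 0.013 for 1455069_x_at (both positive without tg270), -0.017 to 0.077 for 1434897_a_at (negative without tg273 or wt290), and -0.087 to 0.057 for Slc25a29 1438187_at (positive without wt291). With the floor, Slc25a30 1425949_at had no value, since all its values lay under it. No paired analysis was possible because the labels give no number or litter that a UBB+1 tg and a wild-type mouse have in common. Low brightness limits what can be seen for 16 members.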
